A study of Arabidopsis thaliana with 12 samples.

Results

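In leaves that lacked the Polycomb enzyme CLF, 70 genes stood at least 2-fold above WT leaves and dropped to at most 0.5 times that level when TRB4 and TRB5 were mutated as well. They were chosen on levels in CPM, a gene's count divided by the library total and multiplied by 1000000. A gene had to average at least 0.5 CPM in WT leaves, at least 2 times the WT mean in clf29 leaves, and at most 0.5 times the clf29 mean in trb45 clf29 leaves, and 3 loci were left out beforehand. Of the 28775 genes in the table, 17325 reached the WT level, 256 of those also reached the clf29 level, and 70 met the whole rule, which is 27.3% of the 256. The rule fixed the levels of WT, clf29 and trb45 clf29 leaves relative to each other, so the rise in clf29 and the drop in trb45 clf29 are descriptions of the choice. The trb45 libraries took no part in the rule.

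Polycomb repressive complex 2 (PRC2) places a methyl mark on lysine 27 of histone H3 and keeps developmental genes silent, and CLF is its main catalytic subunit in vegetative tissue. In clf mutants flower genes are switched on in leaves, which curl, and plants flower early. TRB proteins are a small family with a Myb domain that binds telomere repeats and the short telo-box found in some promoters, and members of the family have been linked to the recruitment of PRC2.

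The study measured polyA RNA of mature leaves of *Arabidopsis thaliana* in 12 libraries, 3 for each of 4 genotypes. The trb45 clf29 plants carried the trb45-1 and clf29 mutations, the clf29 plants only clf29, the trb45 plants only trb45-1, and the WT plants were of the Col-0 accession. All plants grew on soil under 16 hours of light at 23 °C without treatment, and leaves were taken on day 21. A single trb45 line was used here, and the labels do not say whether libraries of a group came from separate plants, so p-values measure the spread between these libraries, which may be technical.

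Library totals ran from 45519206 counts, in trb45 replicate 2, to 54215882 counts, so that 3 counts were worth 0.0553 to 0.0659 CPM. TRB5 averaged 1.27 ± 0.341 CPM in trb45 clf29 leaves, against 16.9 ± 2.16 CPM in clf29 leaves, and 3.34 ± 1.43 CPM in trb45 leaves, against 17.8 ± 1.42 CPM in WT leaves (mean ± SD, n = 3 each, here and for other means). TRB4 averaged 1.21 ± 0.0576 CPM in trb45 clf29 leaves, against 4.13 ± 0.351 CPM in clf29 leaves, and 2.41 ± 0.962 CPM in trb45 leaves, against 5.72 ± 0.846 CPM in WT leaves. CLF averaged 0.143 ± 0.0471 CPM in trb45 clf29 leaves and 0.0738 ± 0.112 CPM in clf29 leaves, against 14.4 ± 1.71 CPM in trb45 leaves and 12.3 ± 1.24 CPM in WT leaves. The 5 leaf mesophyll markers summed to between 66279 and 79798 CPM in the 12 libraries, as mature leaves should give. In whole leaves, fewer cells of a type and less RNA per cell cannot be told apart, and this applies to every level below.

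The 70 genes ranged widely in how far they stood above WT. The clf29 mean was 2.01 to 22 times the WT mean, with a median of 3.21. The trb45 clf29 mean was 0.0279 to 0.498 times the clf29 mean, with a median of 0.346. The most extreme ratios belonged to AT3G28500, an acidic ribosomal protein gene that reached 22 times WT, and to MBP2, a myrosinase-binding protein gene, which had 0.0279 times its clf29 level in trb45 clf29 leaves. AT3G28500 had a WT mean of 0.519 CPM, near the lowest level. It no longer met the rule with TMM-scaled CPM, or without WT replicate 1 or 3. In the edgeR fit, 69 of the 70 were called higher in clf29 against WT, where 18.5% of all 19138 tested genes were, and 70 of the 70 were called lower in trb45 clf29 against clf29, where 14.2% of all tested genes were. Both shares follow from the choice. The clf29 libraries were all above the WT libraries in 69 genes, against 19.6% of all tested genes, and all below in none, against 31.6%. The trb45 clf29 libraries were all below the clf29 libraries in 69, against 25.2%, and all above in none, against 21.6%. The gene that overlapped in both comparisons was AT3G52130, of a lipid-transfer family.

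**Figure D1:**
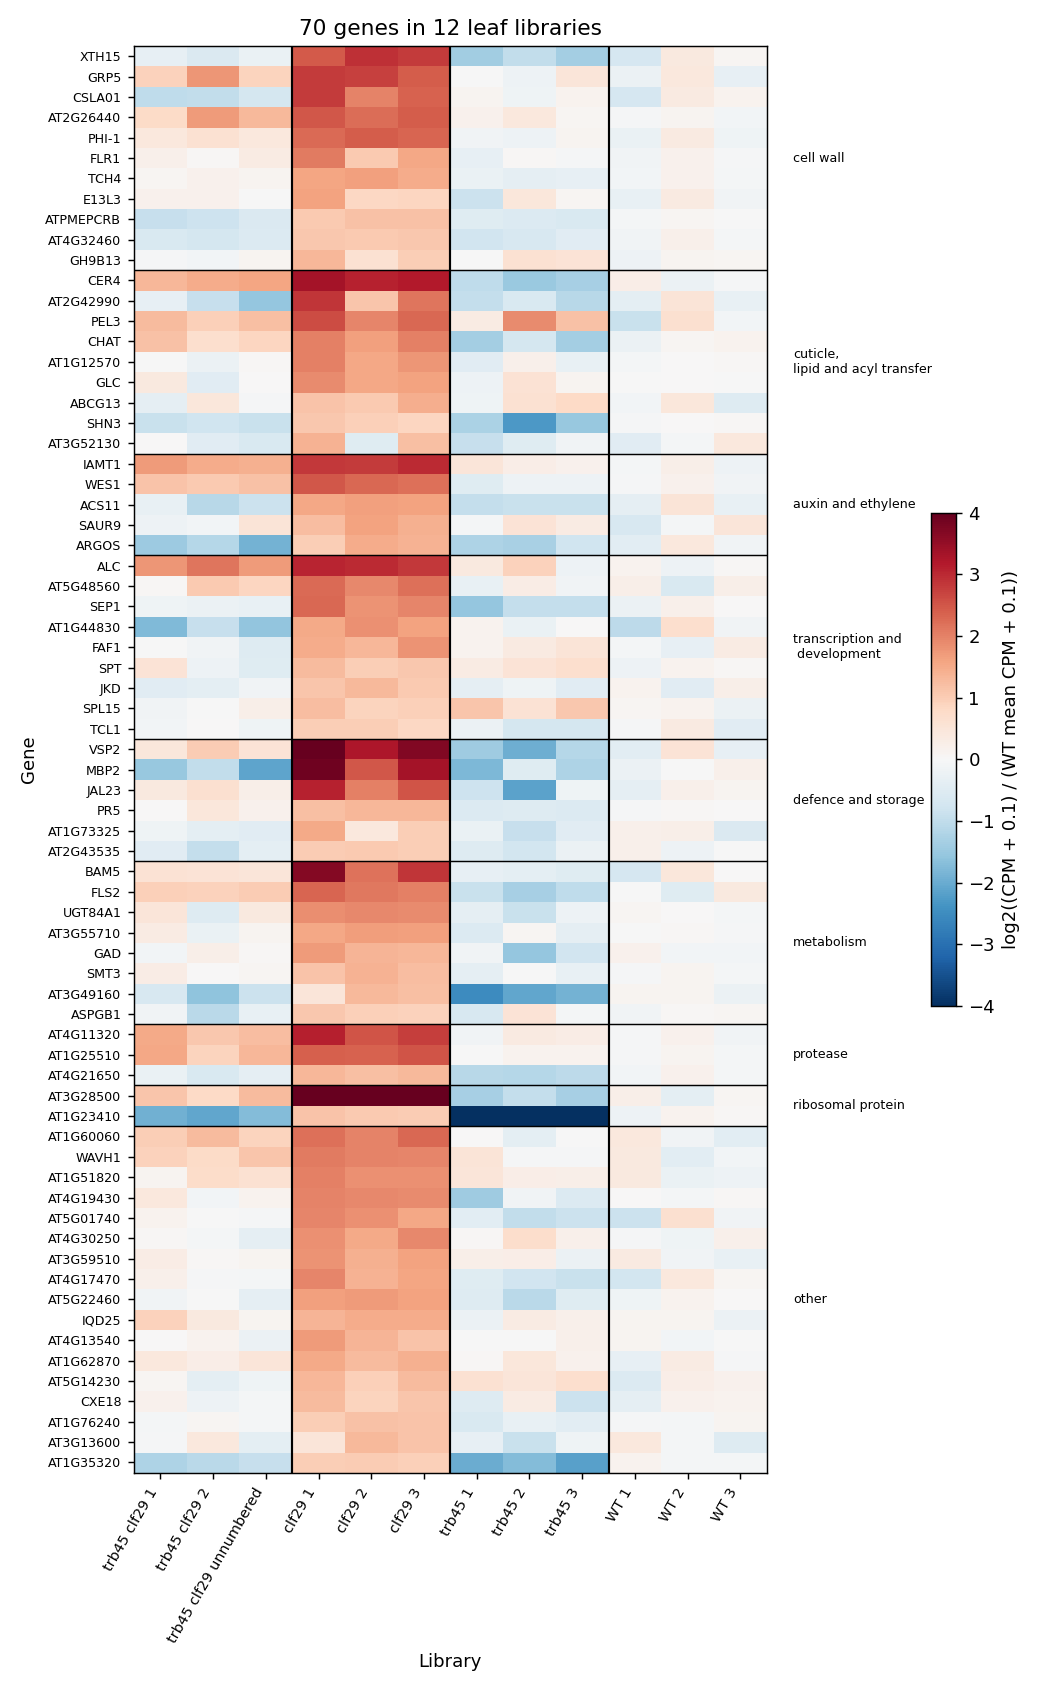
Level of each of the 70 genes in each of the 12 libraries, as log2 of the CPM plus 0.1 over the WT mean CPM plus 0.1, with genes grouped by role and colours capped at 4 in either direction. The clf29 columns are red for every gene except AT3G52130 in clf29 replicate 2, the trb45 clf29 columns hold lower values than the clf29 columns for the other 69 genes, and the trb45 columns hold more blue than red.

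By the role their names give, 11 of the genes belong to the cell wall, 9 to the cuticle, lipids and acyl transfer, 5 to auxin and ethylene, 9 to transcription and development, 6 to defence and storage, 8 to metabolism, 3 to proteolysis and 2 to ribosomal protein families, and 17 have another or no known role. Promoters of these genes were searched for short motifs, among them the telo-box that TRB proteins bind. The window was the 300 bases before the start of each gene in RefSeq's annotation of assembly TAIR10.1, and both strands were read. The telo-box AAACCCTA was found in 1 of 70 windows, or 1.43%, against 4.32% of the windows of 18916 tested genes. That window belongs to IQD25, a calmodulin-binding IQ-domain gene. IQD25 no longer met the rule with TMM-scaled or RLE-scaled CPM. The same held when clf29 replicate 2, clf29 replicate 3, trb45 clf29 replicate 2 or the unnumbered trb45 clf29 library was left out. The G-box CACGTG was found in 7 of 70 windows, or 10%, against 7.97% of all. The W-box TTGACC was in 14.3% of the windows against 13.7%, the CArG core in 22.9% against 21.3%, the repeat GAGAGAGA in 8.57% against 5.49%, and the site II element TGGGCC in 4.29% against 17.9%. The longer telo-box AAACCCTAA, which contains the shorter one, was in 1.43% of the windows against 2.5% of all. In the windows of 184 other clf29-raised genes, each telo-box form was in 0.543%, the G-box in 4.35% and the W-box in 9.78%. The CArG core was in 16.3% of those windows, GAGAGAGA in 3.26% and site II in 8.15%. Low shares of the telo-box and site II were thus not particular to the 70. No difference in shares was tested.

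The windows of IQD25 and BAM5 are shown, the first for its telo-box and the other because its gene had a high clf29 level and a G-box. They lie at chr4:14378406-14378705 (plus strand) and chr4:8669527-8669826 (minus strand) in TAIR10.1, upstream of the annotated transcript, and overlap no other annotated gene. Each is written 5′ to 3′ on the gene's strand, and capitals mark the telo-box in IQD25 and the G-box in BAM5.
IQD25: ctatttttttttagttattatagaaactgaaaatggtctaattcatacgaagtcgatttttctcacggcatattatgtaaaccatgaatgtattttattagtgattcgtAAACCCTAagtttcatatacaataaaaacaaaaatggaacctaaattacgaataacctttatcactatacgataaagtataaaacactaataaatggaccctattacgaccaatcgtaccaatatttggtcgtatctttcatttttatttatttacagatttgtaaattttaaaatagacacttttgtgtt
BAM5: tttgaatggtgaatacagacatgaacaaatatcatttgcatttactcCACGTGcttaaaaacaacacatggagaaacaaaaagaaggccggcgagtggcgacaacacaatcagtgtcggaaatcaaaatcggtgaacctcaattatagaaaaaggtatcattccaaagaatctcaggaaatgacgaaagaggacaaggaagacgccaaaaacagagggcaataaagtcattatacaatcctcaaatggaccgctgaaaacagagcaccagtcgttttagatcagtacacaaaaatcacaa
The telo-box of IQD25 began 191 bases before the gene's start, and the G-box of BAM5 began 253 bases before it. A match of letters is a description of the window and says nothing of binding.

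Genes of the cell wall were the largest group with a named role. Xyloglucan endotransglucosylases, which cut and rejoin wall polymers, were represented by XTH15 and TCH4. XTH15 had 1.64, 1.38 and 1.74 CPM in trb45 clf29 leaves, against 11.9, 16.6 and 15.1 CPM in clf29 leaves. In trb45 leaves it had 0.739, 1.01 and 0.759 CPM, against 1.28, 2.80 and 2.21 CPM in WT leaves. Every clf29 library was far above the rest, the trb45 clf29 libraries lay within the WT range, and the trb45 libraries lay below all WT libraries. XTH15 was lower in trb45 against WT, with a log2 fold change of −1.35 (SE 0.27, adjusted p = 0.00186 by edgeR). TCH4 had 11, 11.6 and 11.2 CPM in trb45 clf29 leaves, against 31.1, 32.1 and 29.2 CPM in clf29 leaves. Levels in trb45 were 8.5, 7.95 and 8.14 CPM, against 9.55, 11.6 and 9.84 CPM in WT. The clf29 libraries were again the highest and the trb45 libraries the lowest, with trb45 clf29 overlapping WT. TCH4 was also lower in trb45 against WT, by −0.35 (SE 0.09, adjusted p = 0.0105 by edgeR).

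CSLA01, of the family of mannan synthases, had one of the deepest drops, to 0.0977 times the clf29 mean. CSLA01 had 2.16, 2.20 and 2.71 CPM in trb45 clf29 leaves, against 31.5, 17.8 and 23.0 CPM in clf29 leaves. Without the clf29 mutation, trb45 leaves had 4.79, 3.91 and 4.89 CPM, against 2.74, 5.67 and 4.87 CPM in WT leaves. The trb45 clf29 libraries lay below all trb45 and all WT libraries, and trb45 and WT libraries overlapped, with a log2 fold change of 0.01 (SE 0.24, adjusted p = 0.983 by edgeR). The clf29 libraries themselves differed, with replicate 1 the highest and replicate 2 the lowest. In the 2 pectin methylesterase genes, levels in trb45 clf29 leaves ended on different sides of WT. ATPMEPCRB averaged 4.09 ± 0.567 CPM in trb45 clf29 leaves, 15.5 ± 0.839 CPM in clf29 leaves, 4.80 ± 0.173 CPM in trb45 leaves and 7.04 ± 0.380 CPM in WT leaves. AT2G26440 averaged 12.2 ± 3.86 CPM in trb45 clf29 leaves, 26.1 ± 2.29 CPM in clf29 leaves, 5.72 ± 0.698 CPM in trb45 leaves and 4.87 ± 0.386 CPM in WT leaves. The trb45 clf29 libraries lay below all WT libraries for ATPMEPCRB and above all of them for AT2G26440. Against WT, trb45 leaves were lower for ATPMEPCRB, by −0.57 (SE 0.11, adjusted p = 0.00131 by edgeR), and not called for AT2G26440, at 0.21 (SE 0.18, adjusted p = 0.435 by edgeR).

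In all, 4 of the 11 wall genes were called lower in trb45 against WT, where 11.2% of all 19138 tested genes were, with a median log2 fold change of −0.10. The fourth was AT4G32460, a DUF642 wall protein gene, which had 7.89, 8.63 and 9.88 CPM in trb45 leaves, against 12.2, 15.6 and 12.8 CPM in WT leaves. The glycine-rich protein gene GRP5 stood at 6.67 times WT in clf29 leaves and 2.48 times WT in trb45 clf29 leaves, and PHI-1, a phosphate-responsive family gene, at 5.26 and 1.42 times. The leucine-rich repeat gene FLR1, the glycosyl hydrolase gene GH9B13 and the glucanase-like gene E13L3 had trb45 clf29 libraries that overlapped with WT.

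The cuticle, the waxy layer over the leaf, was represented by enzymes, a transporter and a regulator. CER4 encodes the reductase that makes the primary alcohols of leaf wax, and it stood at 9.35 times WT in clf29 leaves. CER4 had 11.9, 13.1 and 14.1 CPM in trb45 clf29 leaves, against 47.1, 40.3 and 42.8 CPM in clf29 leaves. Its trb45 libraries had 2.24, 1.60 and 1.8 CPM, against 5.57, 3.89 and 4.47 CPM in the WT libraries. No 2 groups overlapped, and the order from high to low was clf29, trb45 clf29, WT and trb45. CER4 was lower in trb45 against WT, with a log2 fold change of −1.31 (SE 0.13, adjusted p = 3.13e-06 by edgeR). SHN3 encodes an AP2-family regulator of wax and cutin genes. SHN3 had 0.224, 0.243 and 0.224 CPM in trb45 clf29 leaves, against 1.17, 1.07 and 0.978 CPM in clf29 leaves. For trb45 the values were 0.148, 0.0220 and 0.111 CPM, against 0.481, 0.501 and 0.519 CPM for WT. Levels in trb45 were close to those of 3 counts, 1 library standing at a single count, and SHN3 was lower against WT, by −2.36 (SE 0.41, adjusted p = 0.000532 by edgeR). The trb45 clf29 libraries lay between the trb45 and WT libraries without overlap.

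PEL3, an acyltransferase gene needed for a tight cuticle, went the other way in trb45. PEL3 had 14.3, 11.4 and 13.7 CPM in trb45 clf29 leaves, against 36.4, 23.0 and 28.8 CPM in clf29 leaves. The trb45 leaves had 7.41, 22 and 13.2 CPM, against 3.07, 9.07 and 5.37 CPM in WT leaves. The clf29 libraries were the highest, and the trb45 libraries spread from the WT range to just under the lowest clf29 library. PEL3 was higher in trb45 against WT, with a log2 fold change of 1.26 (SE 0.36, adjusted p = 0.0184 by edgeR), although libraries of both groups overlapped. The call was lost without WT replicate 1 (adjusted p = 0.0879), without WT replicate 3 (0.0764) or without trb45 replicate 2 (0.105), and with the 6 WT and trb45 libraries alone (0.0657). It was kept when replicate number was added to the fit of the numbered libraries. Each trb45 library was above the WT library of the same number.

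CHAT, which makes the leaf volatile hexenyl acetate, had 1.53, 1.06 and 1.23 CPM in trb45 clf29 leaves, against 2.87, 2.17 and 2.82 CPM in clf29 leaves. In trb45 leaves it had 0.185, 0.351 and 0.185 CPM, against 0.518, 0.668 and 0.704 CPM in WT leaves. The groups took the same order as for CER4 without overlap, and the log2 fold change in trb45 against WT was −1.42 (SE 0.32, adjusted p = 0.00398 by edgeR). AT2G42990, a GDSL lipase gene, dropped to 0.0883 times the clf29 mean. AT2G42990 had 0.391, 0.224 and 0.112 CPM in trb45 clf29 leaves, against 4.41, 1.22 and 2.60 CPM in clf29 leaves. Levels in trb45 were 0.222, 0.308 and 0.185 CPM, against 0.370, 0.779 and 0.408 CPM in WT. Its clf29 libraries ranged over 3.6 times, and all trb45 libraries lay below all WT libraries without a call, at −1.15 (SE 0.55, adjusted p = 0.143 by edgeR). The lipid-transfer family gene AT3G52130 had 0.633, 0.429 and 0.374 CPM in trb45 clf29 leaves, against 1.78, 0.408 and 1.55 CPM in clf29 leaves. Without the clf29 mutation, trb45 leaves had 0.277, 0.417 and 0.555 CPM, against 0.426, 0.575 and 0.852 CPM in WT leaves. In clf29 replicate 2 the gene stood below all WT libraries, so its place among the 70 rests on clf29 replicates 1 and 3. In all, 3 of the 9 genes of this group were called lower in trb45 against WT, where 11.2% of all tested genes were, and the median log2 fold change was −0.58. The 1 called higher is near the share of all tested genes, 14.5%. AT1G12570, an oxidoreductase gene, GLC, an acyltransferase gene, and ABCG13, a transporter gene of cuticle lipids, had trb45 clf29 libraries that overlapped with WT.

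The hormone genes included growth regulators on both sides of WT. ARGOS, an auxin-induced gene that promotes organ growth, fell furthest in this group. ARGOS had 0.633, 0.821 and 0.448 CPM in trb45 clf29 leaves, against 3.93, 5.63 and 5.16 CPM in clf29 leaves. Its trb45 libraries had 0.758, 0.725 and 1.07 CPM, against 1.42, 2.63 and 1.72 CPM in the WT libraries. Libraries of trb45 clf29 and of trb45 overlapped, and both groups lay below all WT libraries. ARGOS was lower in trb45 against WT, by −1.19 (SE 0.28, adjusted p = 0.00484 by edgeR). The ethylene synthesis gene ACS11 averaged 1.11 ± 0.369 CPM in trb45 clf29 leaves, against 5.93 ± 0.209 CPM in clf29 leaves, and 0.957 ± 0.0295 CPM in trb45 leaves, against 1.90 ± 0.720 CPM in WT leaves. It was lower in trb45 against WT as well, by −1.01 (SE 0.27, adjusted p = 0.0122 by edgeR).

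IAMT1, which methylates auxin, and WES1, which joins auxin to amino acids, instead remained above WT. IAMT1 had 5.42, 4.66 and 4.46 CPM in trb45 clf29 leaves, against 12.1, 11.7 and 13.4 CPM in clf29 leaves. For trb45 the values were 2.29, 1.96 and 1.81 CPM, against 1.54, 1.93 and 1.37 CPM for WT. All trb45 clf29 libraries lay above all WT and trb45 libraries, and trb45 was not called against WT, at 0.31 (SE 0.16, adjusted p = 0.184 by edgeR). Without WT replicate 2 it was called higher, with adjusted p = 0.0435. WES1 averaged 6.34 ± 0.296 CPM in trb45 clf29 leaves, 14.8 ± 1.51 CPM in clf29 leaves, 2.33 ± 0.269 CPM in trb45 leaves and 2.86 ± 0.324 CPM in WT leaves. The auxin-responsive SAUR9 had the WT mean of 0.513 CPM, just inside the lowest level, and its trb45 clf29 and WT libraries overlapped. Of the 5 hormone genes, 2 were called lower in trb45 against WT, ARGOS and ACS11, where 11.2% of all tested genes were.

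Regulators of transcription and development made up 9 of the genes. SEP1, a MADS-box gene of floral organ identity, had a small level in all groups but clf29. SEP1 had 0.633, 0.616 and 0.579 CPM in trb45 clf29 leaves, against 3.98, 2.80 and 3.12 CPM in clf29 leaves. The trb45 leaves had 0.185, 0.330 and 0.333 CPM, against 0.611, 0.853 and 0.741 CPM in WT leaves. The trb45 libraries lay below all others, and trb45 clf29 libraries overlapped with WT. SEP1 was lower in trb45 against WT, with a log2 fold change of −1.40 (SE 0.29, adjusted p = 0.00202 by edgeR). Its relative SEP2, which lay under the WT level needed, averaged 0.106 ± 0.0468 CPM in trb45 clf29 leaves, against 2.02 ± 1.00 CPM in clf29 leaves.

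SPL15, a regulator of the change from the juvenile to the adult phase and of flowering, was higher with either mutation alone. SPL15 had 1.25, 1.36 and 1.64 CPM in trb45 clf29 leaves, against 3.37, 2.63 and 2.75 CPM in clf29 leaves. In trb45 leaves it had 3.11, 2.09 and 3.0 CPM, against 1.46, 1.52 and 1.15 CPM in WT leaves. The single mutants overlapped with each other and lay above all WT libraries, whereas the double mutant overlapped with WT. In trb45 against WT the log2 fold change was 0.97 (SE 0.19, adjusted p = 0.00143 by edgeR). Its relative SPL9 averaged 3.55 ± 0.462 CPM in trb45 clf29 leaves, against 7.13 ± 1.16 CPM in clf29 leaves, and 7.06 ± 1.01 CPM in trb45 leaves, against 6.0 ± 0.341 CPM in WT leaves. SPL15 overlaps AT3G57910 on the opposite strand over 1793 bases, and that gene averaged 2.78 ± 0.403, 2.66 ± 0.420, 3.11 ± 0.402 and 2.92 ± 0.192 CPM in trb45 clf29, clf29, trb45 and WT leaves.

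ALC and SPT encode related basic helix-loop-helix proteins of fruit and carpel development. ALC had 2.22, 2.89 and 2.11 CPM in trb45 clf29 leaves, against 5.44, 5.19 and 4.72 CPM in clf29 leaves. Levels in trb45 were 0.776, 1.16 and 0.481 CPM, against 0.648, 0.482 and 0.593 CPM in WT. ALC kept the largest distance from WT of all 70 genes in trb45 clf29 leaves, at 4.19 times the WT mean, and those libraries lay above all trb45 and WT libraries. ALC overlaps ICU2 on the opposite strand over 1326 bases, and ICU2 averaged 6.05 ± 1.22 CPM in trb45 clf29 leaves, 7.29 ± 0.660 CPM in clf29 leaves, 12.1 ± 2.04 CPM in trb45 leaves and 11 ± 1.33 CPM in WT leaves. SPT had 1.01, 0.560 and 0.448 CPM in trb45 clf29 leaves, against 1.72, 1.39 and 1.49 CPM in clf29 leaves. Without the clf29 mutation, trb45 leaves had 0.850, 1.01 and 1.11 CPM, against 0.555, 0.742 and 0.686 CPM in WT leaves. SPT ended at 1.02 times WT in trb45 clf29 leaves, and all trb45 libraries lay above all WT libraries without a call, at 0.56 (SE 0.29, adjusted p = 0.177 by edgeR).

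AT1G44830, an AP2-domain factor gene, had the deepest drop of this group. AT1G44830 had 0.186, 0.410 and 0.224 CPM in trb45 clf29 leaves, against 2.63, 3.33 and 2.86 CPM in clf29 leaves. Its trb45 libraries had 0.961, 0.703 and 0.870 CPM, against 0.370, 1.45 and 0.778 CPM in the WT libraries. The trb45 clf29 libraries lay below all trb45 libraries and overlapped with WT, in which replicate 1 was low. The meristem regulator FAF1 also had trb45 clf29 libraries below all trb45 libraries, at 0.615, 0.560 and 0.411 CPM against 0.702, 0.835 and 0.944 CPM. Of the 9 genes, 1 was called higher in trb45 against WT, SPL15, and 1 was called lower, SEP1, near the shares of all tested genes, 14.5% higher and 11.2% lower. The zinc finger gene JKD, the trichome repressor TCL1 and AT5G48560, another helix-loop-helix gene, were not called, and all 3 overlapped with WT in trb45 clf29 leaves.

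**Figure D2:**
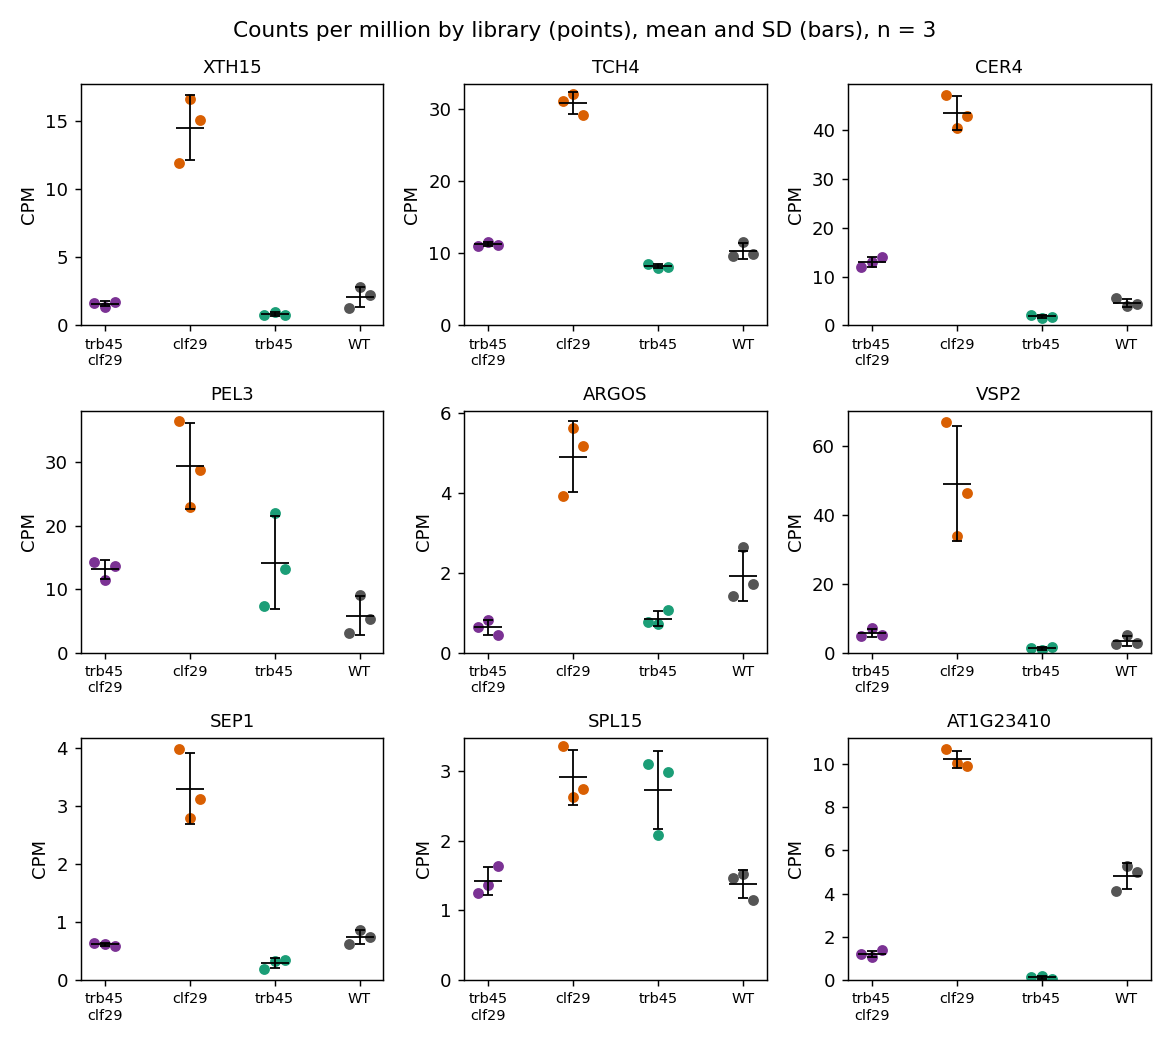
CPM of 9 of the genes by library (points), with the group mean and SD as bars (n = 3), for trb45 clf29, clf29, trb45 and WT leaves. The clf29 group is the highest in each panel, SPL15 is as high in trb45 as in clf29 within the spread, and AT1G23410 is close to 0 in trb45.

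Defence and storage genes held some of the largest distances between clf29 and the other groups. VSP2 encodes a vegetative storage protein induced by jasmonate. VSP2 had 4.81, 7.07 and 5.17 CPM in trb45 clf29 leaves, against 67.0, 34.0 and 46.5 CPM in clf29 leaves. For trb45 the values were 1.24, 0.835 and 1.54 CPM, against 2.59, 5.14 and 2.72 CPM for WT. All clf29 libraries were far above the rest, trb45 clf29 libraries overlapped with WT, and trb45 libraries lay below all WT libraries. In trb45 against WT the log2 fold change was −1.54 (SE 0.34, adjusted p = 0.00340 by edgeR). Its relative VSP1 averaged 1.04 ± 0.263 CPM in trb45 clf29 leaves, against 37.7 ± 22.5 CPM in clf29 leaves, but 0.284 ± 0.155 CPM in WT leaves, under the lowest level.

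MBP2 encodes a protein that binds myrosinase, the enzyme that activates glucosinolates. MBP2 had 0.335, 0.522 and 0.187 CPM in trb45 clf29 leaves, against 18.4, 6.80 and 12.2 CPM in clf29 leaves. The trb45 leaves had 0.259, 0.791 and 0.426 CPM, against 0.944, 1.13 and 1.33 CPM in WT leaves. The clf29 libraries were the highest and spread over 2.71 times, and the trb45 clf29 and trb45 libraries both lay below all WT libraries. The log2 fold change in trb45 against WT was −1.25 (SE 0.44, adjusted p = 0.0498 by edgeR), at the edge of the threshold. The call was lost without WT replicate 1, 2 or 3 (adjusted p = 0.0581, 0.0995 and 0.139), without trb45 replicate 1 or 3 (0.158 and 0.144), and without clf29 replicate 3 (0.0640). It was also lost without trb45 clf29 replicate 1 (0.0562) or the unnumbered trb45 clf29 library (0.0534), with DESeq2 (0.0660) and with library size alone as the scale (0.0561). Adding replicate number to the fit of the numbered libraries removed the call too. Its relative MBP1 averaged 3.21 ± 0.573 CPM in trb45 clf29 leaves, against 6.04 ± 2.18 CPM in clf29 leaves, and 0.972 ± 0.276 CPM in trb45 leaves, against 3.32 ± 1.07 CPM in WT leaves.

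PR5, a thaumatin-like gene of the salicylic acid response, spread most between libraries in trb45 clf29 leaves. PR5 had 16.2, 22.3 and 18.3 CPM in trb45 clf29 leaves, against 37.1, 41.0 and 40.7 CPM in clf29 leaves. In trb45 leaves it had 11, 11.4 and 10.9 CPM, against 15.5, 16.5 and 16.4 CPM in WT leaves. The clf29 libraries were the highest, trb45 was below all WT libraries, and trb45 clf29 overlapped with WT. PR5 was lower in trb45 against WT, by −0.56 (SE 0.10, adjusted p = 0.000686 by edgeR). Without trb45 clf29 replicate 1 it no longer met the rule. The lectin gene JAL23 had 1.25, 1.49 and 1.12 CPM in trb45 clf29 leaves, above all WT libraries, against 8.63, 4.08 and 5.74 CPM in clf29 leaves. The Kunitz inhibitor gene AT1G73325 and the knottin gene AT2G43535 ended at 0.779 and 0.661 times WT in trb45 clf29 leaves. All 6 defence and storage genes had a log2 fold change under 0 in trb45 against WT, as did 48.2% of all tested genes. The 4 called lower were VSP2, MBP2, PR5 and AT2G43535, where 11.2% of all tested genes were.

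Among the 8 metabolic genes, BAM5, a beta-amylase gene, stood highest above WT. BAM5 had 1.88, 1.83 and 1.76 CPM in trb45 clf29 leaves, against 16.8, 5.91 and 9.50 CPM in clf29 leaves. Levels in trb45 were 0.961, 0.923 and 0.851 CPM, against 0.740, 1.71 and 1.24 CPM in WT. The clf29 libraries differed 2.85 times among themselves, and the trb45 clf29 libraries lay above all trb45 and all WT libraries. The trb45 libraries overlapped with WT, at −0.45 (SE 0.38, adjusted p = 0.422 by edgeR). FLS2, here the flavonol synthase 2 gene and not the flagellin receptor of that name, had 4.84, 4.76 and 5.15 CPM in trb45 clf29 leaves, against 12.9, 11.1 and 10.2 CPM in clf29 leaves. Without the clf29 mutation, trb45 leaves had 1.28, 0.923 and 1.18 CPM, against 2.42, 1.74 and 3.26 CPM in WT leaves. No 2 groups overlapped, and the log2 fold change in trb45 against WT was −1.14 (SE 0.19, adjusted p = 0.000437 by edgeR).

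AT3G49160, a pyruvate kinase family gene, was nearly gone in trb45. AT3G49160 had 0.540, 0.224 and 0.448 CPM in trb45 clf29 leaves, against 1.30, 2.33 and 2.19 CPM in clf29 leaves. Its trb45 libraries had 0.0739, 0.132 and 0.167 CPM, against 0.962, 0.964 and 0.741 CPM in the WT libraries. The trb45 libraries were the lowest and the trb45 clf29 libraries lay between those and WT, without overlap. The log2 fold change in trb45 against WT was −2.84 (SE 0.42, adjusted p = 0.000144 by edgeR). SMT3, a sterol methyltransferase gene, had the highest clf29 mean of the 70, at 103 ± 8.92 CPM, against 47.0 ± 4.92 CPM in trb45 clf29 leaves, 37.0 ± 4.57 CPM in trb45 leaves and 43.0 ± 3.20 CPM in WT leaves. SMT3 and the glycosyltransferase gene AT3G55710 were not called in trb45 against WT, at −0.23 (SE 0.12, adjusted p = 0.163 by edgeR) and −0.27 (SE 0.16, adjusted p = 0.232 by edgeR). Without trb45 replicate 2 both were called lower, with adjusted p = 0.0139 and 0.00852. The asparaginase gene ASPGB1, the glutamate decarboxylase gene GAD and UGT84A1, a glycosyltransferase gene of phenylpropanoids, had trb45 clf29 libraries that overlapped with WT. In all, 2 of the 8 were called lower in trb45 against WT, FLS2 and AT3G49160, where 11.2% of all tested genes were.

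The 3 protease genes took different positions in trb45 clf29 leaves. The subtilase gene AT4G21650 lay below WT. AT4G21650 had 28, 22.3 and 26.4 CPM in trb45 clf29 leaves, against 85.4, 77.8 and 82.8 CPM in clf29 leaves. For trb45 the values were 15.5, 15.4 and 16.2 CPM, against 31.4, 37.8 and 32.4 CPM for WT. Every trb45 clf29 library was below every WT library and above every trb45 library, and the log2 fold change in trb45 against WT was −1.13 (SE 0.10, adjusted p = 9.18e-07 by edgeR). The aspartyl protease gene AT1G25510 and the papain-type gene AT4G11320 ended at 2.46 and 2.68 times WT, above all WT libraries, and neither was called in trb45.

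The 2 ribosomal protein family genes were both called lower in trb45 against WT, where 11.2% of all tested genes were. AT3G28500 encodes an acidic protein of the large ribosomal subunit. AT3G28500 had 1.25, 0.970 and 1.40 CPM in trb45 clf29 leaves, against 12.9, 11.3 and 10.1 CPM in clf29 leaves. The trb45 leaves had 0.148, 0.220 and 0.148 CPM, against 0.629, 0.371 and 0.556 CPM in WT leaves. All clf29 libraries were far above the rest, trb45 clf29 lay above all WT libraries, and trb45 lay below all of them, with a log2 fold change of −1.61 (SE 0.30, adjusted p = 0.00103 by edgeR). AT1G23410 encodes ubiquitin fused to the ribosomal protein S27a. AT1G23410 had 1.19, 1.06 and 1.36 CPM in trb45 clf29 leaves, against 10.7, 10.1 and 9.92 CPM in clf29 leaves. In trb45 leaves it had 0.111, 0.198 and 0.0370 CPM, against 4.13, 5.29 and 5.02 CPM in WT leaves. The groups did not overlap, and the order from high to low was clf29, WT, trb45 clf29 and trb45. It had the largest fall of the 70 in trb45 against WT, −5.43 (SE 0.27, adjusted p = 1.84e-09 by edgeR), and 1 trb45 library was under the level of 3 counts. Its close relative UBQ5 averaged 227 ± 37.4 CPM in trb45 clf29 leaves, 295 ± 10.1 CPM in clf29 leaves, 216 ± 28.4 CPM in trb45 leaves and 259 ± 3.87 CPM in WT leaves. UBQ6, another relative, had 0 CPM in every library. How reads shared by such copies were counted is not stated, and the value of AT1G23410 is uncertain to that extent.

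Of the other 17 genes, 3 were called lower in trb45 against WT and 1 higher, where 11.2% of all tested genes were lower and 14.5% higher. AT1G35320, an uncharacterized gene, had 0.596, 0.672 and 0.766 CPM in trb45 clf29 leaves, against 3.15, 3.17 and 3.02 CPM in clf29 leaves. Levels in trb45 were 0.314, 0.395 and 0.259 CPM, against 1.70, 1.45 and 1.45 CPM in WT. All 4 groups were apart, and the log2 fold change in trb45 against WT was −2.26 (SE 0.22, adjusted p = 2.20e-06 by edgeR). AT1G76240, a DUF241 gene, and AT5G22460, a hydrolase gene, were lower by −0.45 (SE 0.10, adjusted p = 0.00433 by edgeR) and −0.70 (SE 0.15, adjusted p = 0.00322 by edgeR). AT5G14230, an ankyrin repeat gene, was higher in trb45, where it had 5.58, 5.07 and 5.77 CPM, against 2.42, 4.34 and 4.04 CPM in WT leaves, and it had 3.78, 2.72 and 3.17 CPM in trb45 clf29 leaves, against 9.26, 7.04 and 8.85 CPM in clf29 leaves. Its log2 fold change in trb45 against WT was 0.58 (SE 0.19, adjusted p = 0.0340 by edgeR). The call was lost without WT replicate 1 or 3 (adjusted p = 0.159 and 0.0587), without trb45 replicate 1, 2 or 3 (0.0689, 0.0514 and 0.110), and with the 6 WT and trb45 libraries alone (0.0749). A fit of the numbered libraries with replicate number added also lost the call. The other 13 genes, among them the receptor kinase gene AT1G51820, the kinase gene AT1G60060, the ubiquitin ligase gene WAVH1, IQD25 and the esterase gene CXE18, were not called.

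Across the 70 genes, the effect of trb45 in the WT background was the comparison least bound by the choice, since the trb45 libraries took no part in it, although the WT libraries did. In trb45 against WT, 22 of the 70 genes, or 31.4%, were called lower, against 11.2% of all 19138 tested genes, and 3, or 4.29%, were called higher, against 14.5% of all. The genes called higher were PEL3, SPL15 and AT5G14230. The median log2 fold change of the 70 was −0.33, against 0.01 over all tested genes, and 47 of the 70, or 67.1%, were under 0, against 48.2% of all. In 27 genes all trb45 libraries lay below all WT libraries, against 15.5% of all tested genes in that direction, and in 3, SPL15, AT5G14230 and SPT, all lay above, against 21.5%. Of the 185 other genes raised at least 2-fold in clf29 that were tested, 10, or 5.41%, were called lower in trb45 against WT and 68, or 36.8%, were called higher, with a median of 0.30. Those genes were set against the same WT libraries, and the difference between the sets was not tested. The count of 3 higher genes fell to 1 without WT replicate 1, without WT replicate 3 or without trb45 replicate 2.

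**Figure D3:**
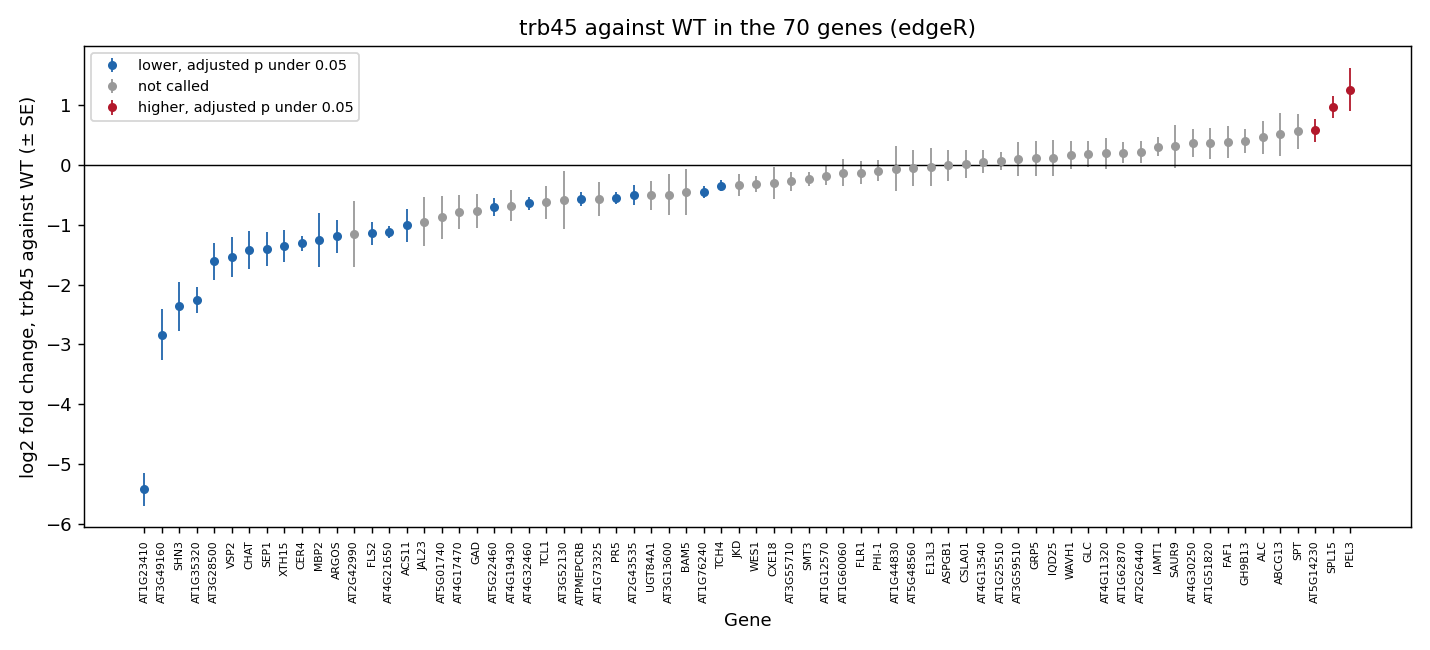
Log2 fold change of each of the 70 genes in trb45 against WT (edgeR, all 12 libraries), ordered from low to high, with bars of 1 SE and colours for genes with an adjusted p under 0.05. The 22 genes called lower run down to −5.43 for AT1G23410, and the 3 called higher are AT5G14230, SPL15 and PEL3.

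How near the double mutant came to WT differed between genes. The trb45 clf29 mean was 0.251 to 4.19 times the WT mean, with a median of 1.03. Expressed as the share of the clf29 increase that was gone in trb45 clf29 leaves, the genes ran from 59.7% for ALC to 167% for AT1G23410, with a median of 97.5%, where values over 100% mean a level under WT. In 41 genes libraries of trb45 clf29 and WT overlapped. In 18 all trb45 clf29 libraries were higher, against 21.9% of all tested genes in that direction, and in 11 all were lower, against 35% of all. The 18 included ALC, IAMT1, CER4, GRP5, WES1 and AT3G28500, and the 11 included AT1G23410, MBP2, ARGOS, SHN3, CSLA01 and AT4G21650. Both groups had entered the rule, so these counts describe the genes chosen.

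**Figure D4:**
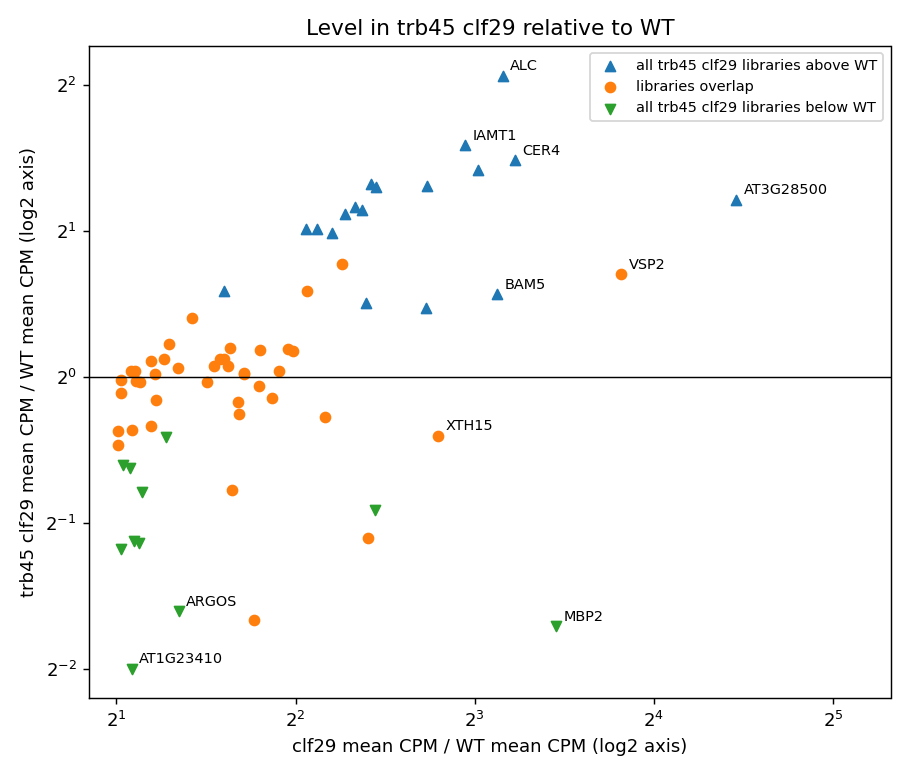
Ratio of the trb45 clf29 mean to the WT mean against the ratio of the clf29 mean to the WT mean for the 70 genes, both on log2 axes, with symbols for genes whose trb45 clf29 libraries all lay above WT, overlapped with WT or all lay below WT. The genes scatter around the line of equal levels, from ALC at 4.19 times WT to AT1G23410 at 0.251 times WT.

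Set against trb45 instead, trb45 clf29 libraries were all higher in 35 genes, against 11.8% of all tested genes, all lower in 6, against 30.9%, and overlapped in 29. The 6 were AT1G44830, SPL15, FAF1, CSLA01, AT4G30250, an ATPase family gene, and AT5G14230. The clf29 libraries were all above the trb45 libraries in 67 genes, against 18.1% of all tested genes, were all below them in none, against 34.1%, and overlapped with them in AT3G52130, SPL15 and GH9B13. The trb45 clf29 and clf29 libraries had entered the rule.

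The clf29 libraries did not hold all genes equally. In 55 of the 70 genes the highest clf29 library was less than 1.5 times the lowest. Of the other 15, 13 were highest in replicate 1 and lowest in replicate 2, among them AT3G52130, AT2G42990, BAM5, MBP2, JAL23, FLR1, VSP2, CSLA01 and PEL3, and AT3G49160 and AT3G13600 had replicate 1 as the lowest. That order held for 29 of the 70, against 25.5% of all tested genes, and for 70 of the other 185 raised genes. The sum of listed genes of the anther tapetum and pollen wall took the same order. Most of these genes were near 0 in WT leaves, but TKPR2, ATA20, TKPR1 and QRT3 averaged 7.04, 4.34, 1.93 and 1.59 CPM there and made up most of the WT sum. The 22 listed genes summed to 10.4, 11.3 and 11.3 CPM in trb45 clf29 leaves, 60.4, 30.5 and 44.2 CPM in clf29 replicates 1, 2 and 3, 13.1, 12.7 and 12.8 CPM in trb45 leaves and 16.8, 13.8 and 14.7 CPM in WT leaves. Between 16 and 18 of the 22 had 3 counts or fewer in each trb45 clf29 library, 2 to 5 in each clf29 library, 12 to 18 in each trb45 library and 16 to 18 in each WT library. Of the listed genes, MS2, A6, A9 and ACOS5 had no counts in the 3 trb45 clf29 libraries, and averaged 5.64 ± 3.64, 6.05 ± 1.08, 1.93 ± 1.2 and 2.11 ± 1.05 CPM in clf29 leaves. The regulators DYT1, TDF1 and MYB80, also listed, averaged only 0.0494, 0.0616 and 0.0123 CPM in clf29 leaves. Other listed regulators, AMS, MS1 and NZZ, averaged 0.536, 0.419 and 0.142 CPM there, against 0.0247, 0 and 0 CPM in WT leaves. TKPR1 and TKPR2 were not called in clf29 against WT (adjusted p = 0.497 and 0.492 by edgeR). No listed anther gene is among the 70, but most of them averaged under the lowest WT level of the rule and so could not be members. MS2, for one, averaged 0.0370 CPM in WT leaves. The part of anther tissue or anther transcripts in the levels of VSP2, MBP2, BAM5 and the others was not tested.

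**Figure D5:**
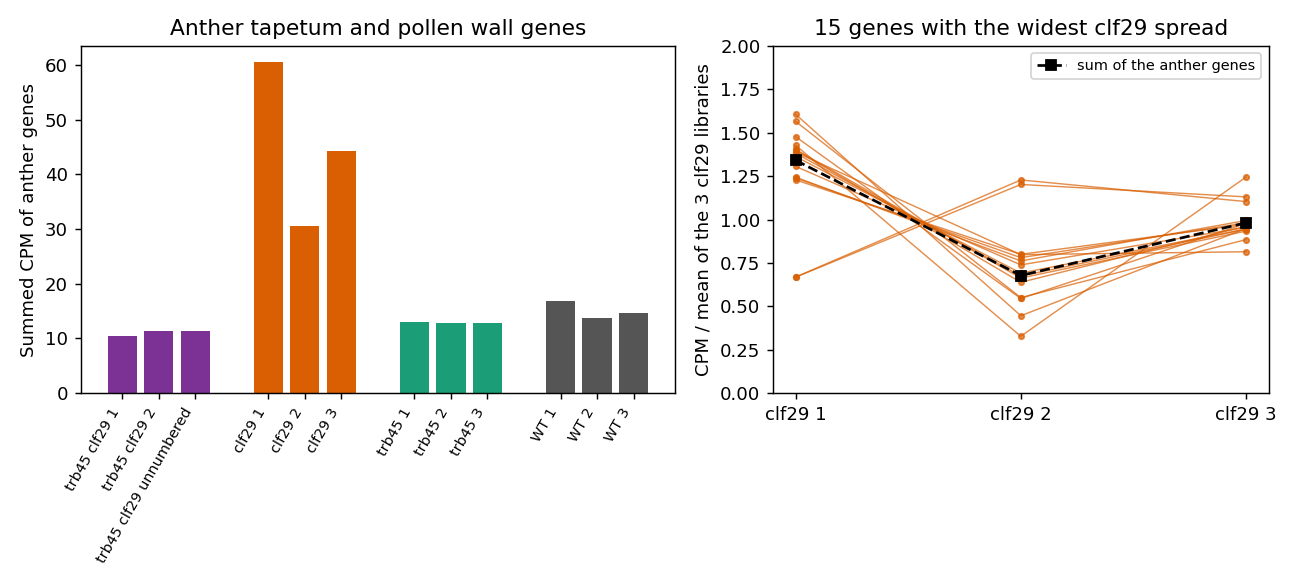
Left, summed CPM of the 22 anther genes in each library. Right, the 15 genes with the widest clf29 spread in the 3 clf29 libraries, each as CPM over its clf29 mean, with the sum of the anther genes as a dashed line. The sum is highest in clf29 replicate 1 and lowest in replicate 2 among clf29 libraries, and 13 of the 15 genes take the same order.

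When clf29 replicate 2, with the lowest anther sum, stood alone for clf29, 65 genes met the rule and 56 of the 70 were among them. The 14 that dropped out included PEL3, FLR1, SPL15, CHAT, AT3G52130, E13L3 and GH9B13, and VSP2, MBP2, BAM5 and CSLA01 stayed. Without clf29 replicate 1, 64 genes met the rule and 61 of the 70 were among them. The number of genes called lower in trb45 against WT was 21 without clf29 replicate 1 and 21 without clf29 replicate 2.

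Lists of related genes were read beside the 70, leaving out the members themselves. Of 26 tested flowering and floral genes, 9 were called lower in trb45 clf29 against clf29 and 6 higher, and 19 were called higher in clf29 against WT and 3 lower. In all tested genes, 14.2% were called lower and 17.2% higher in trb45 clf29 against clf29, and 18.5% were called higher and 16.2% lower in clf29 against WT. The floral repressor FLC averaged 12.2 ± 1.54 CPM in trb45 clf29 leaves, against 3.61 ± 0.363 CPM in clf29 leaves, the opposite direction to SEP1 and SEP2. AG, the floral organ gene AGAMOUS, averaged 62.4 ± 1.82 CPM in trb45 clf29 leaves, against 45.6 ± 2.22 CPM in clf29 leaves, and SEP3 averaged 24.9 ± 0.808 CPM against 50.3 ± 3.33 CPM. In trb45 against WT, 5 of the 26 were called lower and 2 higher. Of 14 tested anther genes, 13 were called lower in trb45 clf29 against clf29 and 12 higher in clf29 against WT, and 1 was called lower in trb45 against WT.

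Jasmonate genes did not move as one. Of 8 tested beside VSP2, 2 were called lower and 1 higher in trb45 clf29 against clf29, 3 higher and 2 lower in clf29 against WT, and 2 lower in trb45 against WT. The jasmonate synthesis gene LOX2 averaged 369.9 ± 25.7 CPM in trb45 clf29 leaves, against 752 ± 84.0 CPM in clf29 leaves, and 388 ± 26.9 CPM in trb45 leaves, against 431 ± 58.3 CPM in WT leaves, in the direction of VSP2. AOS, the next enzyme of the pathway, averaged 133 ± 20.3 CPM in trb45 clf29 leaves, against 52.5 ± 2.13 CPM in clf29 leaves, and 132 ± 7.58 CPM in trb45 leaves, against 164 ± 5.42 CPM in WT leaves, in the opposite direction. Of 7 tested salicylic acid genes beside PR5, 3 were called higher in trb45 clf29 against clf29, and 4 were called lower in each of clf29 and trb45 against WT. PR1 averaged 4.40 ± 4.47 CPM in trb45 clf29 leaves, against 0.666 ± 0.658 CPM in clf29 leaves, and PR2 averaged 22.6 ± 17.4 CPM, against 5.74 ± 4.03 CPM, where PR5 was lower. For PR1 and PR2 the libraries of these groups overlapped, with trb45 clf29 replicate 1 at 0.205 and 4.53 CPM.

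Of 9 tested senescence genes, 4 were called higher in trb45 clf29 against clf29, 1 higher and 1 lower in clf29 against WT, and 1 higher and 1 lower in trb45 against WT. Of 5 tested shoot meristem genes, 3 were called higher in clf29 against WT and 1 was called lower in trb45 against WT. Of 12 tested TRB and PRC2 genes, the mutated ones included, 5 were called lower in trb45 clf29 against clf29, 2 lower in clf29 against WT and 3 lower in trb45 against WT. The root and seed lists each had 2 tested genes, of which 1 was called higher in trb45 clf29 against clf29 in each list, and 1 seed gene was higher in trb45 against WT. Of the 5 leaf mesophyll genes, 1 was called higher in each of the 3 comparisons.

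The genes were spread over the genome, with no 2 next to each other. Chromosome 4 held 20 of them, or 28.6%, against 15.1% of the genes in the table, and chromosome 2 held 6, or 8.57%, against 15.7%. In the RefSeq annotation 12 of the 70 overlap a gene on the opposite strand, namely AT1G12570, AT1G23410, AT2G42990, AT3G49160, AT3G52130, SPL15, XTH15, UGT84A1, AT4G32460, AT5G14230, SEP1 and ALC. AT1G23410 overlaps CAF2 over 885 bases, and CAF2 averaged 46.2 ± 4.89, 49.5 ± 2.49, 60.4 ± 4.42 and 57.8 ± 1.63 CPM in trb45 clf29, clf29, trb45 and WT leaves. XTH15 overlaps AT4G14120 over 382 bases, and AT4G14120 averaged 1.03 ± 0.0665, 1.05 ± 0.275, 1.95 ± 0.121 and 1.28 ± 0.186 CPM in the same order. The libraries were stranded, but whether strand was used in counting is not stated, so levels of such pairs are uncertain.

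Genes near the limits of the rule had the following values. SHN3, SAUR9 and AT3G28500 were inside by the WT level, at 0.50, 0.513 and 0.519 CPM, and AT2G03200, AT3G16120 and AT4G00870 were outside at 0.488, 0.476 and 0.469 CPM. By the ratio of clf29 to WT, ASPGB1, AT3G52130 and AT1G35320 were inside at 2.01, 2.02 and 2.03, and AT4G04745, CSLA10 and ARL were outside at 1.997, 1.98 and 1.94. By the ratio of trb45 clf29 to clf29, IQD25, AT1G62870 and CHAT were inside at 0.498, 0.493 and 0.486, and AT1G14390, RGL1 and AT1G62480 were outside at 0.501, 0.501 and 0.506.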

How the data were processed

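The authors deposited a table of unscaled read counts for each gene in the polyA RNA libraries. Per the submitters' processing notes HISAT2, DESeq2 and the TAIR10 genome were used, and the counting program, its strand setting and the annotation are not given in the sources used here. Columns were assigned to samples through their names, with 0 columns unused, and 1 trb45 clf29 column carries no replicate number. CPM levels use column sums.

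Tests used edgeR 4.0.16 in R 4.3.3 (filterByExpr, TMM factors 0.935 to 1.07, glmQLFit and glmQLFTest with 4 group means over 12 libraries), with Benjamini-Hochberg adjustment over 19138 genes and a threshold of 0.05. The SE is the size of the log2 fold change over the square root of F. Counts were also simulated for trb45 against WT, with equal means in all 4 groups except for 200 of 19138 genes changed in trb45. There 80% of 2-fold and 91% of 4-fold changes were recovered and 4.47% of calls were false. In the data 25.7% of tested genes were called in this comparison and the other groups differed too, so these rates may not carry over. Alternatives were DESeq2 1.42.0, other scalings, filters and sample sets, each library left out, and a replicate block. Counting floors cover counting error only, since reads carry no molecular identifiers.

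Symbols, genome positions and promoters came from RefSeq TAIR10.1, by locus code, for 70 of 70 genes, of which 40 have a symbol other than the code. The table itself holds no coordinates. The 70 genes, the lists, the roles and the tests were chosen with earlier results of these data known. Genes given library by library were mainly those with the largest ratios to WT or to clf29, the highest clf29 levels, the largest changes in trb45, list membership, or values near a limit (33 genes). ACS11, ATPMEPCRB, AT2G26440, TCH4, AT4G32460, FLS2, JAL23, FAF1 and the other members outside that choice, and the relatives and overlapping genes, were named after their values were seen. 1 of the 3 loci left out met the rule and is not reported here.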

Additional observations from a re-analysis of the deposited data

Results flagged for a closer look

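SPL15, AT5G14230 and SPT lay on opposite sides of their background with trb45, with no overlap of libraries in either background. In the WT background SPL15 stood at 1.98 times WT in trb45 leaves, AT5G14230 at 1.52 times and SPT at 1.5 times, with all trb45 libraries above all WT libraries. In the clf29 background SPL15 stood at 0.486 times clf29 in trb45 clf29 leaves, AT5G14230 at 0.385 times and SPT at 0.437 times. SPL15 no longer met the rule with group medians, or without WT replicate 3, clf29 replicate 1 or trb45 clf29 replicate 1. SPT no longer met it without the unnumbered trb45 clf29 library. SPT was not called in trb45 against WT (adjusted p = 0.177 by edgeR). The fall in the clf29 background was fixed by the choice of genes, and the difference between backgrounds was not tested.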

How the results depend on the processing

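The number of genes that met the rule was 46 with a lowest WT level of 1 CPM and 383 with none, and 63 to 82 with a library left out. With group medians it was 66, with TMM-scaled CPM 69 and with RLE-scaled CPM 71. The genes called lower in trb45 against WT numbered 22, and 20 to 26 with a library left out, 26 with DESeq2 and 15 when a change of 1 or more on the log2 scale was also asked. Those called higher numbered 3, and 1 to 4 with a library left out, 1 in a fit of the 6 WT and trb45 libraries, and 1 with that size asked. The cause was not tested. The median log2 fold change was −0.33, and −0.43 to −0.23 with a library left out. Of the 33 genes of the naming rule, 17 were called, and 14 to 17 with a library left out, where 25.7% of all tested genes were called. The naming rule took genes with the largest called changes in trb45, so this count partly follows from it. Over 627 combinations of gene and alternative, 602 kept the call or its absence, 22 lost it and 3 gained it, and none changed direction past the threshold. The losses were in MBP2 (11 alternatives), AT5G14230 (7) and PEL3 (4).

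The main fit did not pair libraries by replicate number. Deviations of same-numbered WT and trb45 libraries correlated at 0.273, 0.322 and 0.0273 for replicates 1, 2 and 3. Other same-numbered pairs of groups ran from −0.255 to 0.0275. Whether same-numbered WT and trb45 libraries shared a replicate effect was not tested, so a fit with a replicate block is given as an alternative. With the replicate block, 21 genes were called lower and 2 higher, the median was −0.33 and 15 of the 33 were called, and MBP2 (adjusted p = 0.0841 by edgeR) and AT5G14230 (0.0728) lost the call. Depth limits genes near 3 counts, such as SHN3 and AT1G23410 in trb45.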
